A study of Rattus norvegicus with 110 samples.

Results

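The comparison was the effect of a treated father, an F1 sire, on liver mRNA in F2 sons that were themselves given the high dose of carbon tetrachloride (CCl4), a chlorinated solvent used to scar the liver. Its members were chosen by label alone: the liver samples of F2 males at 50% CCl4, which gave 28 of the 83 liver samples and of the 110 samples of the series. All were Sprague Dawley rats, an outbred strain, and all 28 received 0.5 mL/kg of 50% CCl4 in olive oil by gavage 3 times per week, with liver sampled at day 39. They formed 4 groups of 7 males. Group 13 descended from an olive oil F0 grandsire and an olive oil F1 sire, and group 16 from an olive oil grandsire and a CCl4-treated sire. Group 19 had a CCl4-treated grandsire and an olive oil sire, and group 22 had both treated. Treated ancestors had received 50% CCl4 and a recovery period before mating with untreated females. F1-treated males (groups 16 and 22, n = 14) were set against F1-control males (groups 13 and 19, n = 14), with F0 treatment as a covariate. By the study's animal assignment, the 28 males came from 26 litters and 16 F0 sires, 8 of which had descendants in both F1 arms. Males of 1 F0 sire are related, though pairs of them from different litters deviated from their group means with a mean r of -0.00775 over 12 pairs, 3 of them over 0.1.

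CCl4 is made toxic by cytochrome P450 enzymes of hepatocytes around the central vein, which die and are replaced by division of surviving hepatocytes. Repeated dosing activates stellate cells, the collagen-producing cells of the liver, and draws in macrophages, so that damage, regeneration and scarring run side by side. A father can pass on no liver cell, so what reaches a son from the sire comes with sperm, seminal fluid or the mating itself. RNA of whole liver was measured, so fewer cells of a type and less RNA per cell cannot be told apart.

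The total count per library ran from 31638559 to 50930971, with a median of 39476736 in F1-control and 38387200 in F1-treated males. The log2 CPM values (library-scaled counts) of males of the same group correlated with a median r of 0.971 over 84 pairs (0.921 to 0.982). Male 7 of group 22 stood furthest from its group, with a sample weight of 0.225 in a limma fit in which 1 is the average, followed by male 4 of group 19 at 0.312. The tables carry Ensembl identifiers only, and symbols could be attached to 1488 of the 18572 genes tested (8.01%). These symbols come from lists that the study drew up on these same samples for other contrasts, so the named genes are no even sample of the transcriptome. Of the hepatocyte markers, only Tat, which degrades tyrosine, carried a symbol, and it ranged from 8531 to 74253 normalized counts over the 28 males.

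No gene passed the test for the F1 sire's treatment. By edgeR's quasi-likelihood test on the 28 males, 0 of 18572 genes (0%) had an adjusted p under 0.1 with a mean normalized count over 50, the smallest adjusted p being 0.216. At an unadjusted p under 0.05 there were 1193 genes (6.42%), of which 861 were higher with a treated sire (4.64%) and 332 lower (1.79%). Over the 12801 genes with a mean over 50, the quartiles of the log2 difference were -0.08 and 0.09. In none of these did the 14 treated males lie apart from the 14 controls (0 of 12801, 0%). Other ways of fitting the same contrast did call genes. The Wald test of DESeq2 on the same males called 144 of 17086 genes (0.843%), 137 higher (0.802%) and 7 lower (0.041%). The edgeR fit of all 83 liver males, which shares 1 estimate of the spread over the 3 doses, called 197 of 19004 (1.04%), 180 higher (0.947%) and 17 lower (0.0895%). The lists held 101 genes in common, which was 51.3% of the 197 and 70.1% of the 144.

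The called genes varied more between males at the high dose than at the doses with which the larger fit pooled them. The median within-group SD of the 197 genes, on the log2 CPM scale, was 0.366 with vehicle, 0.415 at 8% CCl4 and 0.637 at 50% CCl4. For all genes with a mean over 50 the same SD was 0.294, 0.267 and 0.328. The 144 genes of DESeq2 had SDs of 0.535, 0.657 and 0.790. What this wider spread contributed to the calls was not tested.

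Principal components described how the 28 males varied as a whole. PC1 held 32.5% of the variance of the 1000 most variable genes and PC2 17.3%. The F1 arms differed by 1.17 units on PC1 (adjusted permutation p = 0.876) and by 7.17 on PC2 (adjusted permutation p = 0.362). On PC4, with 5.40% of the variance, F1-control scores ran from -8.44 over a median of 3.22 to 13.5 and F1-treated scores from -18.5 over -2.66 to 7.60. The treated mean was -3.62 ± 7.87 and the control mean 3.62 ± 5.91 (SD, n = 14 each), with an adjusted permutation p of 0.0338 over the 4 components. The arms overlapped over most of their range, and without male 7 of group 22 the adjusted permutation p was 0.0763. In a decomposition of log2 CPM in place of variance-stabilized values, the difference on PC4 was -5.49 (adjusted permutation p = 0.733), on an axis that correlated with the first at only r = 0.427 over the 28 males. With the 500 most variable genes, on an axis that followed the first at r = 0.889, it was -4.75 (adjusted permutation p = 0.129). It was -13.6 with all tested genes (adjusted permutation p = 0.0111) and -7.73 with length offsets (adjusted permutation p = 0.0243).

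**Figure D1:**
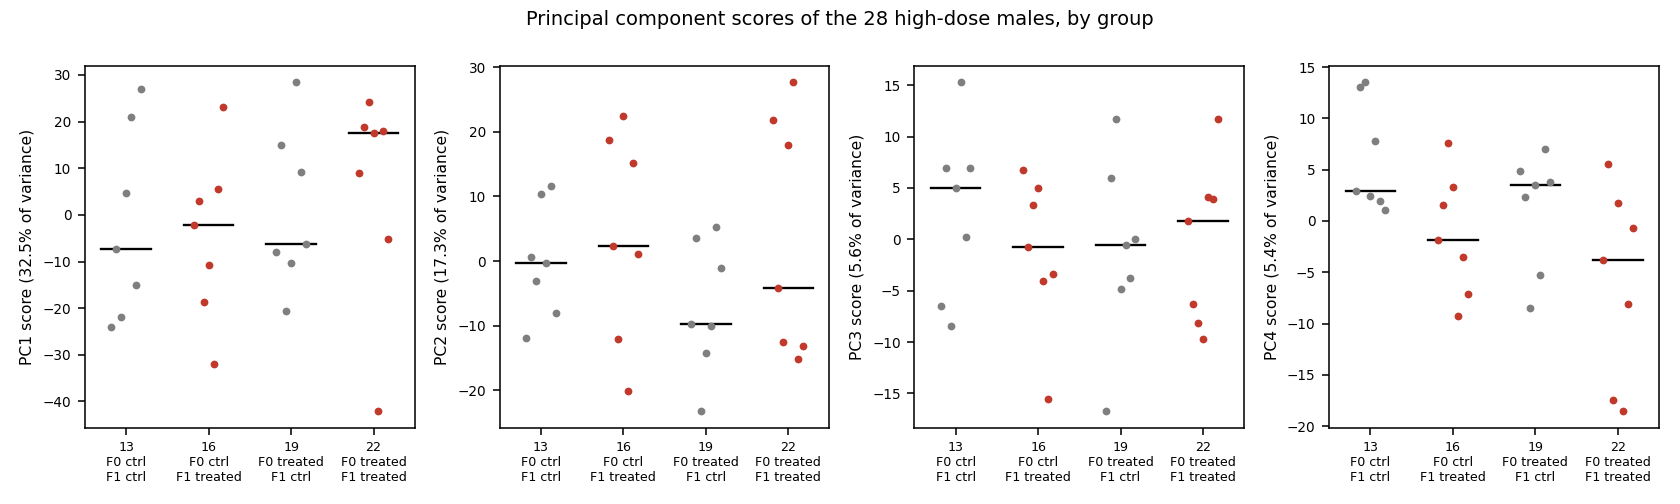
Scores of the 28 high-dose males on PC1 to PC4 of variance-stabilized values (units of the decomposition), by group, with F1-control males in grey and F1-treated males in red. The groups overlap on all 4 components, and on PC4 the treated mean is -3.62 against 3.62 in controls.

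Of the genes with a symbol, the 20 with the smallest unadjusted p and the same sign in both F0 arms were taken. Of these, 7 were higher and 13 lower with a treated sire. None of them passed the edgeR test on 28 males, while DESeq2 called 4 and the 83-male fit 7. Over all genes the shares called were 0.843% and 1.04%, and 0.275% by DESeq2 over genes with a symbol and a mean over 50. The 20 were picked by p on the same contrast and males, so these calls add no support. Unc5b and Slc34a2 were first in order of p. Unc5b, a receptor for the guidance cue netrin, had normalized counts of 1785, 3772 and 5221 (lowest, median, highest) in F1-control males and 967, 2298 and 4233 in F1-treated males. Its log2 difference was -0.59 ± 0.16 (SE), adjusted p 0.218 by edgeR on 28 males, 0.056 by DESeq2 and 0.0908 by edgeR on 83 males. Only 2 of the 14 treated males exceeded the control median, but the ranges overlapped. Slc34a2, a sodium-dependent phosphate transporter, measured 808, 1822 and 3376 in controls and 1214, 2647 and 7948 in treated males. The log2 difference was 0.69 ± 0.20 (adjusted p 0.251 by edgeR on 28 males, 0.0841 by DESeq2 and 0.409 by edgeR on 83), and 0.52 without male 4 of group 22, which alone had 7948. Further down, Slc25a33, a mitochondrial carrier of pyrimidine nucleotides, had medians of 427 and 333, a log2 difference of -0.35 ± 0.13 (adjusted p 0.465 by edgeR on 28 males, 0.382 by DESeq2 and 0.327 by edgeR on 83).

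Other genes among the 13 lower ones are described next, with what each is known to do. Stbd1, which anchors glycogen to membranes, counted 3102, 5944 and 12916 in F1-control males and 2649, 4156 and 6522 in F1-treated males. Its log2 difference of -0.62 ± 0.19 had an adjusted p of 0.254 by edgeR on 28 males, 0.0994 by DESeq2 and 0.0113 by edgeR on 83 males. Most treated males lay in the lower part of the control range, 3 of them below all controls. Rnf185, a ubiquitin ligase of endoplasmic reticulum quality control, had medians of 2045 and 1710, and no treated male exceeded the control median. The log2 difference was -0.20 ± 0.07, with an edgeR adjusted p of 0.444 on 28 males and 0.0268 on 83, and 0.282 by DESeq2. Herpud1, a component of the machinery that degrades misfolded endoplasmic reticulum proteins, had medians of 9507 and 7663 and a log2 difference of -0.32 ± 0.12 (adjusted p 0.516 by edgeR on 28 males, 0.373 by DESeq2 and 0.477 by edgeR on 83). The ubiquitin ligase Trim39 had medians of 811 and 670, a log2 difference of -0.25 ± 0.08 and edgeR adjusted p values of 0.315 on 28 males and 0.0892 on 83, against 0.196 by DESeq2.

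Of the 7 genes higher with a treated sire, Tubgcp3, Smtn and Sgo2 are given with their values. Tubgcp3, a subunit of the gamma-tubulin ring that seeds microtubules, had 573, 627 and 775 counts in F1-control and 634, 705 and 827 in F1-treated males. The log2 difference was only 0.16 ± 0.06 (adjusted p 0.366 by edgeR on 28 males, 0.0938 by DESeq2 and 0.0830 by edgeR on 83), yet all 14 treated males lay above the control median. Smtn, an actin-binding protein of contractile cells, had medians of 568 and 709 and a log2 difference of 0.41 ± 0.14 (edgeR adjusted p 0.367 on 28 males and 0.0817 on 83, DESeq2 0.205). Sgo2, a shugoshin that shields cohesin at centromeres, counted 43.9, 108 and 209 in controls and 93.9, 212 and 408 in treated males. Its log2 difference was 0.74 ± 0.23 (edgeR adjusted p 0.293 on 28 males and 0.0260 on 83, DESeq2 0.118), with 7 treated males above the highest control. Insc, an adaptor that orients the mitotic spindle, was among the 13 lower genes, with medians of 897 and 517 and a log2 difference of -0.57 ± 0.20 (adjusted p 0.420 by edgeR on 28 males, 0.312 by DESeq2 and 0.160 by edgeR on 83).

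**Figure D2:**
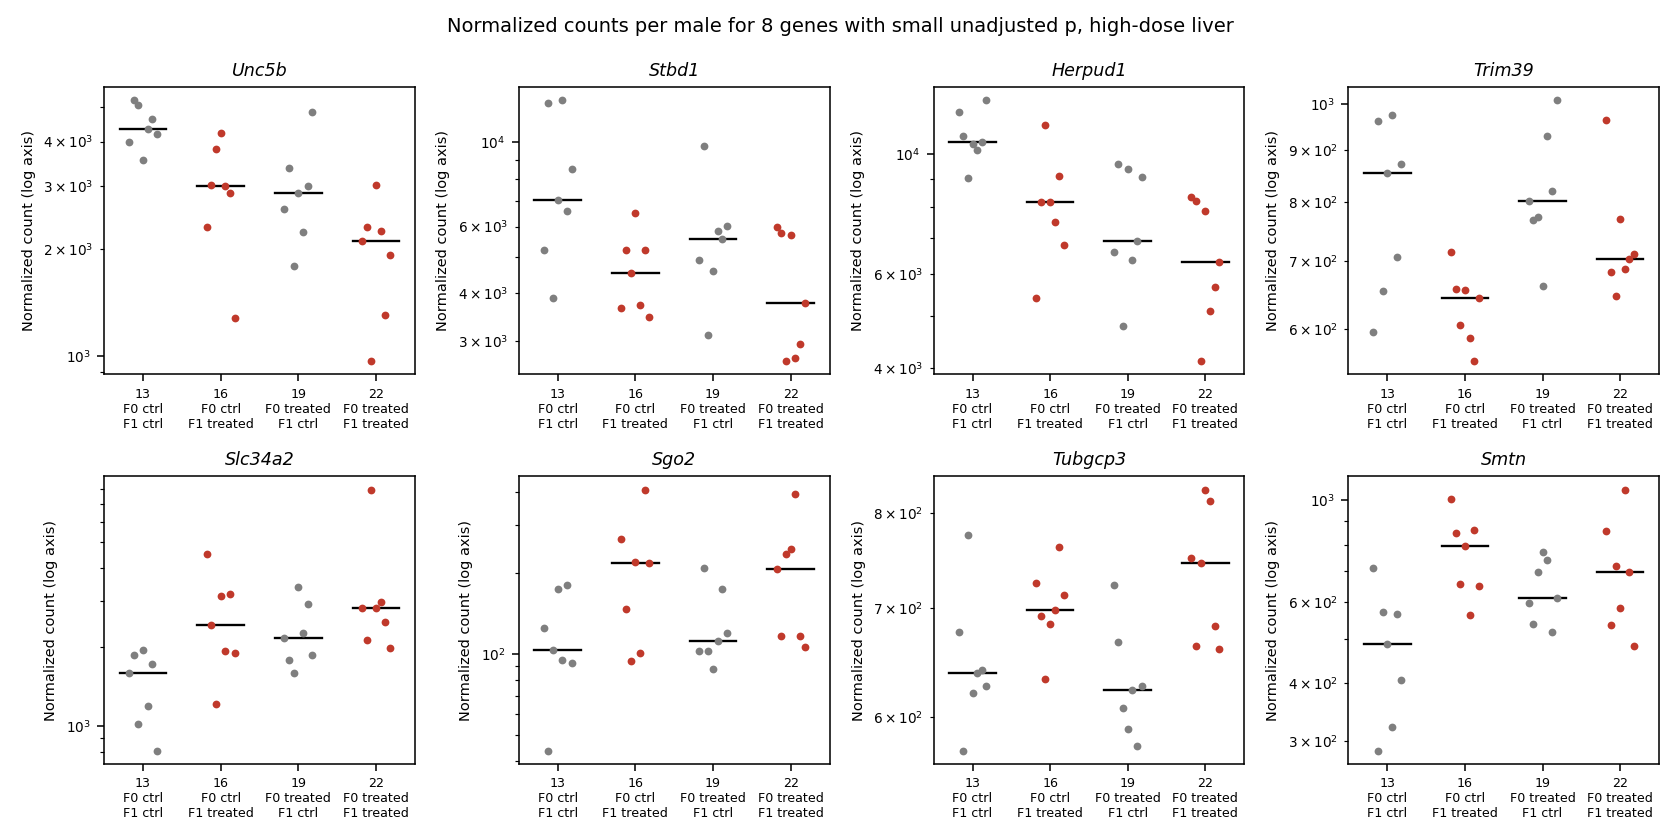
Normalized counts (log axis) of 8 genes in each of the 28 males, by group, with F1-control males in grey, F1-treated males in red and the group median as a black line. Every gene overlaps between the arms; for Tubgcp3 the 14 treated males all lie above the F1-control median of 627.

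The other members of the 20 were N4bp2l1, Marveld3 (a tight junction protein), Mcc, Tmco3, Tbc1d9, Apbb3, Zfp385b, Prss53 and Tp53inp1 (a p53-induced stress protein). Their log2 differences ran from -0.69 for Tmco3 to 0.41 for Tbc1d9 (Tmco3 at -0.36 ± 0.34 with the F0 sire as a block), with edgeR adjusted p values from 0.378 for N4bp2l1 to 0.495 for Tp53inp1. None of these 9 was called by DESeq2 or by the 83-male fit. Within the 4 necropsy dates taken separately, 18 of the 20 genes had the same sign on every date, the exceptions being Stbd1 and Tbc1d9 with 3 of 4. That the sign held on dates drawn from the same males adds no independent evidence. The 83-male fit also called Flrt3, an adhesion protein of the FLRT family, at an adjusted p of 0.0989 by edgeR, against 0.517 by edgeR on 28 males and 0.337 by DESeq2. Its log2 difference of 0.73 ± 0.28 on 28 males became 0.33 without male 7 of group 22, whose 588 counts stood far above the next highest of 191.

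The 137 genes that DESeq2 called higher varied together between males. This was a description, since the genes were selected on the same contrast. Their pairwise correlations within groups had quartiles of 0.588, 0.798 and 0.899 over the 28 males, and their median log2 difference was 1.0. By edgeR their unadjusted p values ran from 9.67e-05 to 0.00598 and their adjusted p values from 0.216 to 0.366. A score, the mean of the standardized log2 CPM of the 137 genes, ran from -1.48 over a median of -0.567 to 0.521 in F1-control males and from -0.705 over 0.715 to 1.73 in F1-treated males. The score followed PC2 at r = 0.768 and PC4 at r = -0.495 over the 28 males, all computed from the same counts, and PC2 is the axis on which the arms gave an adjusted permutation p of 0.362. The F1-treated males were split, with 8 of 14 above the highest control and the rest within the control range. Only 2 litters gave a pair of males. Males 1 and 2 of group 22 scored 1.21 and -0.705, and males 4 and 5 of group 19 scored -0.767 and -0.531. The difference between the arms within dates 1 to 4 was 1.1, 0.919, 1.46 and 0.674.

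**Figure D3:**
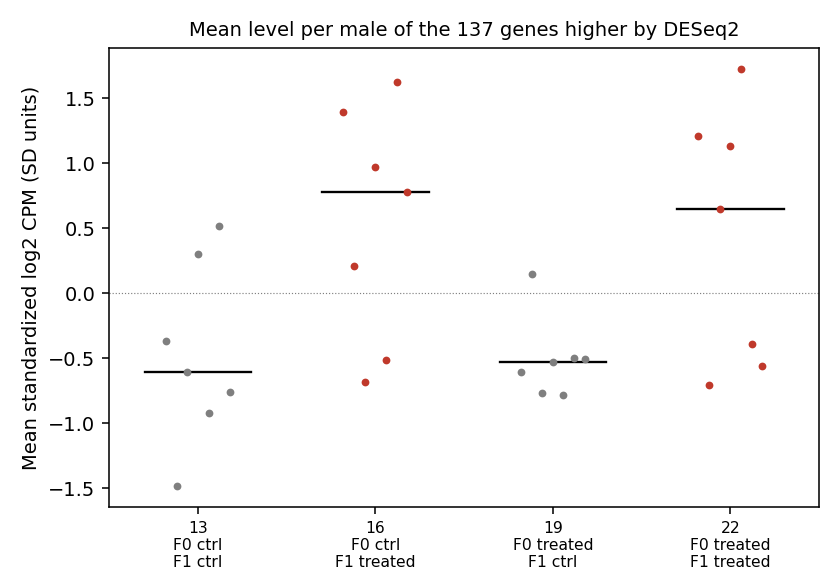
Mean standardized log2 CPM (SD units) of the 137 genes higher by DESeq2, one point per male, with the group median as a line. The highest F1-control male is at 0.521, and 8 of the 14 F1-treated males lie above it, up to 1.73.

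Among genes with a symbol, those whose level followed this score most closely within groups were Sgo2 (r = 0.938), the DNA damage histone H2ax (0.841), Ube2s (0.808), a ubiquitin-conjugating enzyme of the anaphase-promoting complex, and the nuclear pore protein Ndc1 (0.799), each over n = 28. The plasminogen activator Plau (0.755) and the SUMO-activating subunit Sae1 (0.740) came next, and N4bp2l1 ran against the score at -0.822. H2ax had 234, 323 and 421 counts in F1-control and 242, 368 and 743 in F1-treated males, a log2 difference of 0.35 ± 0.15 (edgeR adjusted p 0.614). Ube2s had 785, 948 and 1251 against 789, 1221 and 1759, a log2 difference of 0.30 ± 0.12 (edgeR adjusted p 0.543). In both genes the lowest treated males matched the lowest controls, while the highest treated males exceeded all controls. Only Ccne1, cyclin E1, of the 25 cell cycle genes listed carried a symbol, with a log2 difference of 0.54 ± 0.27 (edgeR adjusted p 0.796), so the set can be given no theme.

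Promoters of the closest followers are shown so that their sequence can be read beside the score. They were searched for CCAAT boxes and for TTTGAA, the cell cycle homology region, motifs known from promoters of cell cycle genes, which does not make the followers such genes. RefSeq's promoter table (GRCr8) held H2ax and Ube2s of the 4 closest followers of the score, and not Sgo2 or Ndc1. Both sequences run from 250 bases before to 50 bases after the start site, with TTTGAA and CCAAT matches on either strand in capitals.
H2ax, chr8:53568468-53568767, plus strand: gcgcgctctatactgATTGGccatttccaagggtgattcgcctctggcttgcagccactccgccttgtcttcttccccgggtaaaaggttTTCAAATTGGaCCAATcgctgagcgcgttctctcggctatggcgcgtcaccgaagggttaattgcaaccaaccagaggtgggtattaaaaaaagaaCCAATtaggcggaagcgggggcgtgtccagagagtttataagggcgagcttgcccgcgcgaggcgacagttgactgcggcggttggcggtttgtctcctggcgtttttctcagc
Ube2s, chr1:78057409-78057708, plus strand: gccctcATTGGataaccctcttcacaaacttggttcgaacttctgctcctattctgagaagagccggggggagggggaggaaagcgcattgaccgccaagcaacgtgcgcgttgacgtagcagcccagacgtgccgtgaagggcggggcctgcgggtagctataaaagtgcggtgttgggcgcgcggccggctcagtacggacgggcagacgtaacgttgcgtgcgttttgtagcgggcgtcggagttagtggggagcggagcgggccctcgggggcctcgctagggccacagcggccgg
The H2ax window held 4 CCAAT matches and 1 TTTGAA match on the reverse strand, which shares a base with the CCAAT match beside it. The Ube2s window held 1 CCAAT match and 0 TTTGAA matches. Of 33465 promoters of that length in the table, 37.5% held CCAAT, 18.3% held TTTGAA and 7.41% held both.

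The DESeq2 count rested on a few males. Leaving out each male in turn moved it between 1 and 219 genes, and edgeR on the remaining males called 0 in all 28 fits. Without male 7 of group 22 DESeq2 called 1 gene, without male 1 or male 9 of group 16 it called 2, and without male 1 of group 22 it called 53. Without male 9 of group 13, a control, the count was 219. The 83-male fit called 67 genes without male 7 of group 22 and up to 275 without male 10 of group 22. Without the males of necropsy date 1 DESeq2 called 1 gene and the 83-male fit 0. Fitted with the F0 sire as a block, DESeq2 called 2 genes and the 83-male edgeR fit 7. Of the 28 males, only the 18 from the 8 F0 sires with descendants in both F1 arms inform the F1 term under that block. Fewer calls are therefore possible from lower power alone. The difference itself stayed within 1 SE of its value without the block for several named genes, edgeR on 28 males giving -0.59 ± 0.22 for Unc5b, -0.68 ± 0.22 for Stbd1, 0.62 ± 0.25 for Sgo2 and 0.46 ± 0.15 for Smtn with that block. Other genes moved by more than 1 SE, among them Klf9 from -0.37 to -0.79 ± 0.25, Tat from -0.56 to -0.95 ± 0.30 and Cd5l from 0.18 to -0.36 ± 0.33.

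**Figure D4:**
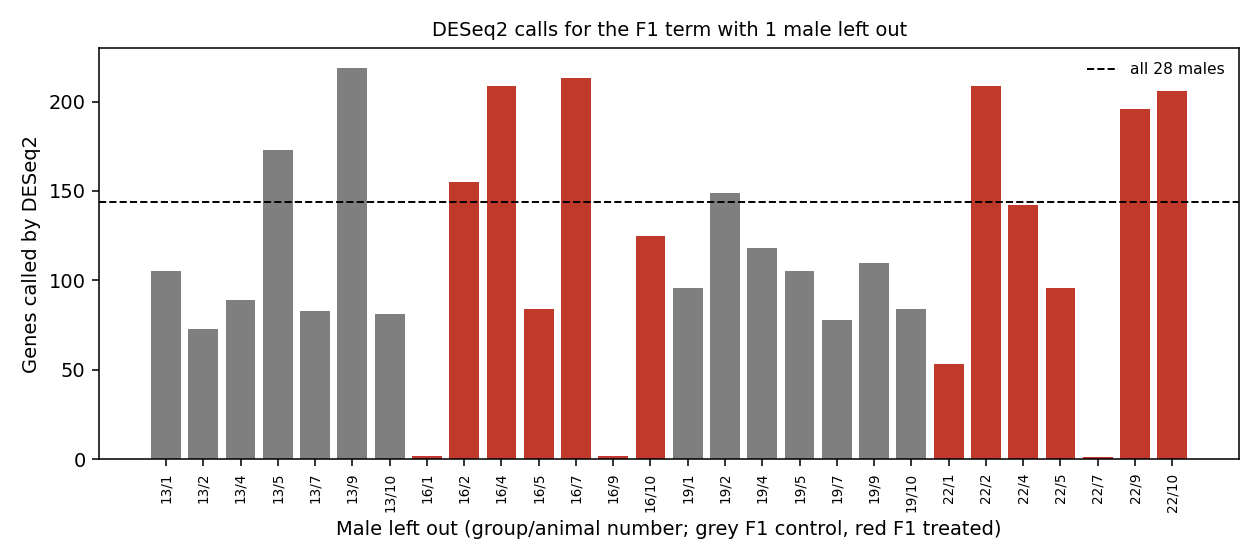
Number of genes called by DESeq2 for the F1 term (bars, from 0) with each of the 28 males left out in turn, named as group/animal, against 144 with all males (dashed line). The count is 1 or 2 without 22/7, 16/1 or 16/9.

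The effect was next split by the grandsire's treatment. With an untreated grandsire (group 16 against 13), edgeR called 0 of 18572 genes (0%), with 1130 at an unadjusted p under 0.05, DESeq2 5 and the 83-male fit 4. With a treated grandsire (group 22 against 19), edgeR called 0 (0%), with 886 at an unadjusted p under 0.05, DESeq2 5 and the 83-male fit 9. The interaction, which tests whether these differ, gave 0 of 18572 (0%) by edgeR, 0 by DESeq2 and 761 at an unadjusted edgeR p under 0.05. Among the 20 genes, Smtn differed by 0.68 ± 0.19 with an untreated and 0.14 ± 0.19 with a treated grandsire, an interaction that did not pass (edgeR adjusted p over 0.1). Tmco3 differed by -0.20 ± 0.33 and -1.21 ± 0.34, and Tp53inp1 by -0.86 ± 0.23 and -0.08 ± 0.23, again without passing. Unc5b was nearly the same in both, -0.59 ± 0.23 and -0.58 ± 0.23.

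**Figure D5:**
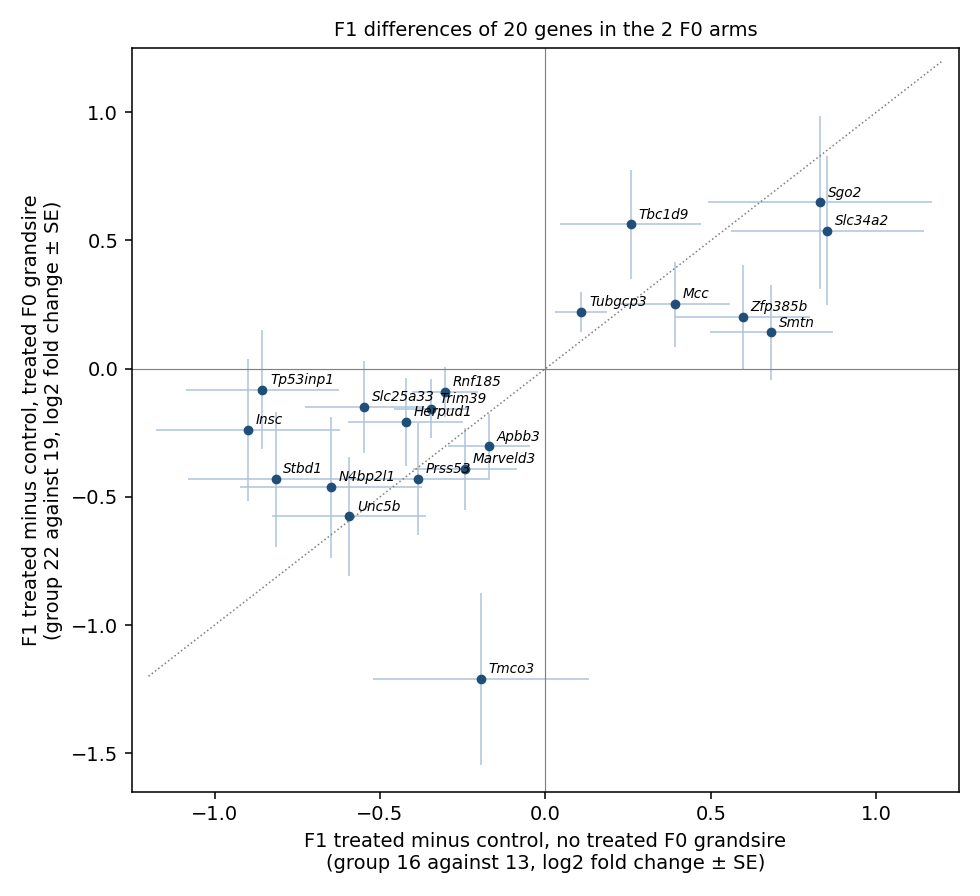
Log2 difference, F1-treated minus F1-control (± SE), of the 20 named genes, in the F0-control arm (group 16 against 13) and the F0-treated arm (group 22 against 19). Both arms have the same sign by the rule that chose the genes; the arms lie furthest apart for Tmco3, at -0.20 and -1.21.

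Whether the effect was particular to the high dose was tested in the 83 males as a difference of F1 effects. Against vehicle, edgeR called 0 of 19004 genes (0%), with 1948 at an unadjusted p under 0.05 and a smallest adjusted p of 0.105, and DESeq2 called 100. The edgeR count was 8 with the animal number as a replicate block, 7 over genes with a mean count over 10 and 6 with transcript lengths as offsets. Against the low dose, edgeR called 0 (0%), with 875 at an unadjusted p under 0.05, and DESeq2 3. The trypsin-like serine protease Prss53 had F1 differences of -0.41 at the high dose and 0.59 ± 0.17 with vehicle, the difference of the effects being -1.0 ± 0.23 (edgeR adjusted p 0.123). Apbb3, which binds the amyloid precursor protein, had -0.24 and 0.38 ± 0.11, a difference of -0.62 ± 0.15 (edgeR adjusted p 0.132). Trim39 also turned, from -0.25 to 0.20 ± 0.08 with vehicle, and Unc5b (0.06 ± 0.19) and Marveld3 (0.00677 ± 0.13) lay just above 0 there. The other named genes chosen by smallest p kept their sign with vehicle. Among these, Smtn had 0.41 at the high dose and 0.44 ± 0.12 with vehicle. Insc had -0.57 and -0.43 ± 0.19, and Slc25a33 -0.35 and -0.32 ± 0.14. In the same edgeR fit of 83 males, the F1 effect with vehicle had 65 calls of 19004 genes (0.342%) and 2801 genes at an unadjusted p under 0.05 (14.7%), and the F1 effect at the high dose had 197 calls and 1553 genes. The F1 effect at the low dose had 0 calls (0%) and 462 genes (2.43%). DESeq2 on the 83 males called 249 genes at the high dose (1.36%), 243 with vehicle (1.55%) and 1 at the low dose (0.00527%). The 137 genes had a median F1 difference of 0.08 with vehicle and 0.00092 at the low dose, against 1.0 at the high dose on which they were selected.

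Gene lists of the injured liver were covered only in part, and in none did edgeR or DESeq2 call a member. Of all 1456 genes with a symbol and a mean over 50, edgeR called 0 and DESeq2 4 (0.275%). Of 13 glucocorticoid-induced genes, 6 could be read, all with a log2 difference below 0 and a median of -0.33. Lpin1, Zbtb16 and Acer2, which are among the 6, belong to a set chosen by the study partly because grandsire and sire effects pointed the same way. The samples used for that choice include these males, so the sign of these genes here is not independent evidence. Of the 6, Klf9 was at -0.37 ± 0.21 and Fkbp5, a chaperone of the glucocorticoid receptor, at -0.24 ± 0.14. Their edgeR adjusted p values were 0.883 and 0.912. With the F0 sire as a block the 6 lay further below 0. Klf9 was then at -0.79 ± 0.25 (edgeR adjusted p 0.931), Fkbp5 at -0.33 and Tsc22d3 at -0.31. Lpin1 was at -0.84, Zbtb16 at -0.93 and Acer2 at -0.22 with that block. By grandsire, the differences in the F0-control and F0-treated arms were -0.70 and -0.04 for Klf9, -0.38 and -0.10 for Fkbp5, -0.41 and -0.17 for Tsc22d3, -0.84 and -0.01 for Lpin1, -0.86 and 0.08 for Zbtb16, and -0.26 and 0.09 for Acer2. Tsc22d3 rested on male 4 of group 19, with 3473.6 counts against 1087 in the next of its group, and its difference over both arms went from -0.29 ± 0.29 to -0.03 without that male. The interaction passed in none of the 6 (edgeR adjusted p over 0.1). Of 19 circadian clock genes 8 could be read, 1 above 0 (Cry2, 0.11 ± 0.11) and 7 below, with a median of -0.13. With the F0 sire as a block Cry2 was at 0.02 ± 0.13 and Per3 turned from -0.25 to 0.16. The 9 of 20 ribosome biogenesis genes, among them Nolc1, had a median of 0.05, 6 above 0 and 3 below. The 4 of 15 macrophage markers had a median of 0.08, with 3 above 0, among them C1qb at 0.11 ± 0.09, and 1 below, Cd163 at -0.07 ± 0.18. With the F0 sire as a block the balance turned, C1qb alone lying above 0 (0.13) and Cd5l (-0.36), Adgre1 (-0.31) and Cd163 (-0.39) below. The 4 of 8 DNA methylation genes had a median of 0.16 and lay above 0, Tet3 by 0.00033. Hells, which is among the 4, belongs to the same chosen set as Lpin1, Zbtb16 and Acer2. With the F0 sire as a block 2 of the 4 were below 0, Tet2 at -0.00310 and Tet3 at -0.08, with Dnmt3b at 0.05 and Hells at 0.20, and Tet3 was also below 0 in the 83-male fit (-0.00659). The 5 of 14 histone deacetylases and demethylases had a median of -0.06, 1 above 0 and 4 below. All genes with a mean over 50 had a median of -2.76e-05.

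Single members of other lists gave wide ranges. The chemokine Ccl2 had 37.4, 130 and 426 counts in F1-control and 23.7, 103 and 2339 in F1-treated males, a log2 difference of 1.04 ± 0.56 that became 0.36 without male 7 of group 22. The interferon-induced Rtp4 had medians of 919 and 1483 (0.52 ± 0.23, edgeR adjusted p 0.676). Tat had medians of 48870 and 28304 (-0.56 ± 0.23, edgeR adjusted p 0.635), with -0.98 ± 0.32 in the F0-control arm and -0.14 ± 0.31 in the F0-treated arm. With the F0 sire as a block Tat was at -0.95 ± 0.30 (edgeR adjusted p 0.931). Of the cytochromes P450 that act on foreign compounds, Cyp1a2 was at 0.28 ± 0.28 and Cyp1a1 at -0.52 ± 0.61, which turned to 0.37 with the F0 sire as a block. Without single males Cyp1a2 ran from 0.14 (male 2 of group 22) to 0.44 (male 10 of group 13) and Cyp1a1 from -0.90 (male 2 of group 22) to -0.14 (male 1 of group 13). Insig1, a sterol-sensing membrane protein, was at -0.25 ± 0.25, and at -0.45 without male 4 of group 16. Stellate cell, neutrophil, red cell, exocrine pancreas, bile acid, PPARA and heat shock lists had no member with a symbol, so they were not analysed here. The other lists had 1 to 3 readable members each.

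The 9 genes that the study singled out for ancestral treatment were read for the sire alone. They belong to a set chosen partly because F0 and F1 effects pointed the same way in samples that include these 28 males, so their direction here is not independent evidence. Lpin1, a phosphatidate phosphatase, had 1262, 1999 and 9941 counts in F1-control and 893, 1760 and 10088 in F1-treated males, a log2 difference of -0.42 ± 0.30 (edgeR adjusted p 0.991). Without male 4 of group 16 it was -0.74. Zbtb16, a zinc finger repressor, was at -0.40 ± 0.47, and at -0.17 without male 4 of group 19, -0.66 without male 4 of group 16 and -0.74 without male 5 of group 22. The ceramidase Acer2, at -0.09 ± 0.15, ran from -0.17 without male 4 of group 16 to -0.04 without male 7 of group 16. With the F0 sire as a block Lpin1 was at -0.84 ± 0.42, Zbtb16 at -0.93 ± 0.50 and Acer2 at -0.22 ± 0.18, while Hells fell to 0.20 ± 0.30. The bile acid transporter Slc10a2 was at 0.02 ± 0.18, the dioxin receptor Ahr at 0.03 ± 0.13, the interleukin receptor Il17ra at 0.01 ± 0.07 and Vegfa, the endothelial growth factor, at -0.16 ± 0.10. The transcriptional corepressor Ski differed in sign between F0 arms, 0.31 ± 0.11 and -0.15 ± 0.11, an interaction that did not pass (edgeR adjusted p over 0.1). Hells, a chromatin remodeler needed for DNA methylation, had medians of 460 and 531 and a log2 difference of 0.40 ± 0.20 (edgeR adjusted p 0.793). Of the 9 genes, none had an edgeR adjusted p under 0.1 for the sire, and their 95% intervals all included 0.

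Genes without a symbol led the order of p values. ENSRNOG00000025302.4 had 55.1, 105 and 203 counts in F1-control and 93.9, 304 and 646 in F1-treated males (1.21 ± 0.27, edgeR adjusted p 0.216), 9 treated males exceeding all controls. ENSRNOG00000013774.5 had medians of 227 and 345 (0.81 ± 0.19, edgeR adjusted p 0.216). ENSRNOG00000055078.1 had medians of 3179 and 1812 (-0.83 ± 0.23, edgeR adjusted p 0.218). ENSRNOG00000047067.2 was present in 3 F1-control males only, at 1704 in male 4 of group 19, 1301 in male 7 of group 13 and 641 in male 9 of group 19. No other male exceeded 7.48, and the medians of both arms were 0, while its edgeR p was 7.44e-05 unadjusted and 0.216 adjusted.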

How the data were processed

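RNA of whole liver was sequenced from F2 male rats after a TruSeq stranded mRNA preparation. The authors quantified transcripts with Salmon 0.14.0 against rat transcripts of Ensembl release 100 and summarised them by gene in R 3.5.0; they deposited raw gene counts together with a table of mean transcript lengths, which served here only as offsets in an alternative. The name of the genome assembly was not given in the sources used here. Columns were matched to samples by animal number. The counts are whole numbers and were analysed as deposited.

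The tests covered genes whose counts summed to more than 10 within any 1 group (18572 for the 28 high-dose males, 19004 for all 83). The main test was edgeR 4.0.16 quasi-likelihood with TMM factors, F1 treatment and F0 treatment as terms and Benjamini-Hochberg adjustment in R 4.3.3; a call required both an adjusted p below 0.1 and a mean above 50 normalized counts. DESeq2 1.42.0, limma 3.58.1, other filters, scalings, blocks and the omission of single males or necropsy dates were alternatives, and the code was tested on simulated data. Simple effects and the interaction came from the 4 group means, and dose differences from the 12 group means of all 83 males. Principal components used variance-stabilized values of the 1000 most variable genes, with F1 labels permuted within F0 treatment 100000 times (two-sided). Intervals were 95%.

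Symbols for 1489 identifiers came from the study's supplementary gene lists. Named genes were the 20 with a symbol, a mean over 50 and the same sign in both F0 arms with the smallest unadjusted p, members of gene lists with the smallest p, and genes the study singled out; Flrt3, followers of the score and genes without a symbol were chosen after their values were seen. Some list members are not reported here. The comparison and lists were chosen with earlier results of these data known. Same-numbered males of different groups shared a necropsy date by the study's records. Their deviations from the group means correlated at a mean r of -0.0064 over 42 pairs (-0.420 to 0.442, 14 of them over 0.1). The numbers were not taken as pairs in the main test, though a mean near 0 does not exclude an effect of the shared date. The p values measure the spread between animals of an outbred strain, some of which share a sire.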

Additional observations from a re-analysis of the deposited data

Results flagged for a closer look

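Within each group of 7 males, the highest or lowest value of a named gene, a component or the score was looked at. It was flagged where its gap to the next male, as a share of the group's range, exceeded Dixon's critical value. Chance gives such a gap in about 5% of groups. For genes the gap and range were taken on a log2 scale, while plain normalized counts are given below. Of 280 combinations of a gene, component or score with a group, 19 met this, a share not far from the 5% that chance gives. Of the 19, 4 were in male 4 of group 19, the F1-control male with a sample weight of 0.312. In that male Tsc22d3, a glucocorticoid-induced leucine zipper, stood highest at 3473.6 normalized counts against 1087 in the next, and N4bp2l1 highest at 782 against 556. Tbc1d9 (369) and the histone demethylase Kdm6a (995) were lowest there.

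In the other control males, the macrophage markers Adgre1 (2635 in male 7 of group 13) and Cd163 (4666 in male 9 of group 19) stood highest in their groups, as did the clock gene Per3 (1003 in male 1 of group 13, against 205 in the next). Zbtb16 was lowest in male 2 of group 13 at 76.5 against 657, Hells in male 4 of group 13 at 158, Ahr in male 7 of group 13 at 1219.5 and Tp53inp1 in male 1 of group 13 at 1497. Tmco3 was lowest in male 9 of group 19 at 51.3. Male 2 of group 19 stood highest in its group for Ube2s, at 1197, and for the score of the 137 genes, at 0.150 against -0.495.

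Among F1-treated males, Slc34a2 reached 7948 in male 4 of group 22 against 2978 in the next, and Flrt3 588 in male 7 of group 22 against 137. Lpin1 reached 10088 in male 4 of group 16 against 2583, Adgre1 3101 in male 5 of group 16 and the histone demethylase Kdm6b 1174 in male 2 of group 16. The causes of these single values were not tested.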

How the results depend on the processing

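The comparison had 14 outbred males per arm, and symbols could be attached to 8.01% of the genes tested, so most genes could not be named. By edgeR on 28 males the count stayed at 0 under every alternative run: DESeq2 size factors, transcript lengths, other filters and thresholds, date, litter and F0 sire terms, limma-voom, robust dispersions, and each male or date left out. With the animal number as a replicate block it was also 0 (952 at an unadjusted p under 0.05), and the block left 150 calls in the 83-male fit and 108 by DESeq2; it gave 8 calls for the high-dose effect less that with vehicle and an adjusted permutation p of 0.00304 for PC4, and changed no other call of the edgeR test on 28 males, nor that of the high dose less the low dose. It was not run on the calls of DESeq2 or the 83-male fit within the F0 arms, or of DESeq2 for the dose differences. The numbers were not taken as pairs in the main test, and the mean r near 0 given above does not exclude an effect of the shared date.

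Other fits gave 144 calls (DESeq2), 197 (83 males) and 249 (DESeq2 on 83 males), the first and second falling to 2 and 7 with the F0 sire as a block. Without necropsy dates 1, 2, 3 and 4 in turn DESeq2 called 1, 22, 4 and 145, and the 83-male fit 0, 203, 23 and 228. Without single males the count ran from 1 to 219 by DESeq2 and from 67 to 275 in the 83-male fit, and so from 0 to 275 over all fits. DESeq2 on 83 males, the DESeq2 and 83-male fits without single males or dates, the same fits with a block, the 83-male values of single genes, the robust and unweighted fits and the omission of males from the components were chosen after seeing the data. DESeq2 called 5 genes in each F0 arm, and 100 and 3 for the high dose less vehicle and less the low dose; the 83-male fit called 4 and 9 in the F0-control and F0-treated arms. For the high dose less vehicle, transcript lengths gave 6 calls, a mean count over 10 gave 7 and omitting date 4 gave 1, as it did against the low dose. The causes were not tested.

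On PC4 the difference was -5.49 with log2 CPM and -4.75 with 500 genes, both with an adjusted permutation p over 0.05, -13.6 with all tested genes and -7.73 with lengths, both with an adjusted permutation p under 0.05, and -8.16 to -6.09 without single males, with 6 of the 28 fits over 0.05 (largest adjusted permutation p 0.0763). PC1 turned to -5.55 with all tested genes and ran from -0.637 to 4.46 without single males. PC2 ran from 5.31 to 8.99. PC3 turned to 2.95 (log2 CPM), 1.03 (500 genes) and 0.436 (lengths), with -2.97 to -0.486 without single males.

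Some genes that passed no test changed sign. Tet3 turned to -0.00111 with lengths, -0.0812 with the F0 sire block and -0.00659 in the 83-male fit, and Slc10a2 to -0.00385 with the replicate block. With the F0 sire block Il17ra was at -0.0262, Cyp1a1 at 0.370 (from -0.52), Cd5l at -0.361 (from 0.18), Adgre1 at -0.309, Per3 at 0.163 (from -0.25) and Tet2 at -0.00310. Without single males the ranges crossed 0 for Slc10a2 (-0.0762 to 0.0779), Ahr (-0.0209 to 0.0849), Il17ra (-0.00939 to 0.0379), Cd163 (-0.120 to 0.0463), Adgre1 (-0.0613 to 0.154), Per3 (-0.346 to 0.151), Tet3 (-0.0402 to 0.0326) and Kdm6a (-0.0548 to 0.0130).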
